A study of Homo sapiens with 4 samples.

Results

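Small nucleolar RNA host genes were examined in human mantle cell lymphoma lines after knockdown of BTK. The 10 genes were GAS5, SNHG1, SNHG3, SNHG5, SNHG6, SNHG7, SNHG8, SNHG12, SNHG15 and ZFAS1. They were taken by symbol as spliced noncoding transcripts that carry small nucleolar RNAs in their introns, and all 10 had a value in each library, among 25277 symbols in the deposited table. Mantle cell lymphoma is a malignancy of B lymphocytes, and BTK is the kinase that relays signals from the B cell receptor. The 4 groups, with 1 library each, were Mino with the vector labelled sc4 control, Mino with a hairpin against BTK (shBTK), Z138 with sc4 control and Z138 with shBTK. Every culture was a stable line with a doxycycline-inducible vector and had received doxycycline for 48 hours, controls included. The content of the control vector, and whether a stable line was a single clone or a pool, were not given in the sources used here.

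Small nucleolar RNAs guide the chemical modification of ribosomal RNA. Those of the box C/D class direct methylation of the ribose, and those of the box H/ACA class direct conversion of uridine to pseudouridine. They are cut from introns of a host transcript. In the host genes described here the exons encode no known protein. The spliced RNA that remains is, for some hosts, short-lived in growing cells because ribosomes engage it and nonsense-mediated decay removes it. Several hosts start with a pyrimidine tract (5′ TOP), as ribosomal protein mRNAs do, which ties their translation to growth signals. GAS5 was first found as an RNA that accumulates in growth-arrested cells.

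The starts of the host genes are shown because a pyrimidine tract at the start can be read from them. RefSeq start windows (GRCh38.p14; 250 bases before to 50 after the start) were matched for 8 of the 10 genes and not for SNHG6 and SNHG15. The lines below give 40 bases before and 20 bases from the annotated start, on the transcript's strand, 5′ to 3′. Capitals mark TATAA where it begins 45 to 16 bases before the start, and CTTTC or CTTTT where it begins within 5 bases of the start.
SNHG5, chr6:85678714-85678773, minus strand: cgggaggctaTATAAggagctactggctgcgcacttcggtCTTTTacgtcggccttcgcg
SNHG12, chr1:28581854-28581913, minus strand: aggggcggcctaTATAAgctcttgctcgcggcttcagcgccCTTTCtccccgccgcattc
ZFAS1, chr20:49278602-49278661, plus strand: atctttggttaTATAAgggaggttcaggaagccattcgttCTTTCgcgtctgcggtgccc
SNHG8, chr4:118278722-118278781, plus strand: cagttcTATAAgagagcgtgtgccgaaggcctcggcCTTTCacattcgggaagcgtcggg
SNHG7, chr9:136728165-136728224, minus strand: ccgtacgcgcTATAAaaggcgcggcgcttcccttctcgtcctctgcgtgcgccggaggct
SNHG1, chr11:62855866-62855925, minus strand: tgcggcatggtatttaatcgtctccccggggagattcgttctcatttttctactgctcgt
SNHG3, chr1:28505903-28505962, plus strand: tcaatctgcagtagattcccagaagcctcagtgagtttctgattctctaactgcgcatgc
GAS5, chr1:173869026-173869085, minus strand: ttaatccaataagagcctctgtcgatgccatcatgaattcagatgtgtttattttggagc

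TATAA stood at that place in 5 of 8 host windows, namely SNHG5, SNHG7, SNHG8, SNHG12 and ZFAS1. Of all 35116 RefSeq windows of the same length, 4.21% held it there. CTTTC or CTTTT stood at the start in 4 of 8 host windows (SNHG5, SNHG8, SNHG12 and ZFAS1), against 3.99% of all windows. The same 4 hosts held both words, as did 0.199% of all windows. Among 12 windows of other noncoding hosts, 1 held TATAA there (SNHG19), 3 held CTTTC or CTTTT (SNHG4, SNHG16 and SNHG19) and 1 held both, so most of those hosts lacked both words at these places. Searched on the opposite strand at the same places, TATAA was found in 1 of 8 host windows and CTTTC or CTTTT in 0 of 8, against 2.08% and 2.15% of all windows. The E-box word CACGTG lay anywhere in the window in 1 of 8 hosts, SNHG7, and in 7.26% of all windows. The words were chosen after these windows had been read, the 2 words do not overlap, and a gene with several starts is represented here by the start that RefSeq lists. Other pyrimidine runs were not counted, so a host without capitals at its start, such as SNHG1 or SNHG7, can still begin with pyrimidines. Further starts of a gene were not searched. A host without these words here, such as GAS5, can therefore still have a pyrimidine tract at another start.

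Expression was given as FPKM, that is fragments scaled to transcript length and to the mapped total, so levels of different genes can be compared per length. BTK, the target, measured 37.0 FPKM with the control vector and 9.84 with the hairpin in Mino, and 50.96 and 12.4 in Z138. The B cell genes CD79A, CD79B, MS4A1 and PAX5 were at 14.5 FPKM or more in each library, and CD22, a further B cell gene, was at 102 to 107 FPKM in Mino and 3.34 to 5.96 in Z138. Of the mantle cell lymphoma markers, SOX11 was at 19.8 to 23.6 FPKM in the 4 libraries and CD5 at 0.0531 to 2.33. CCND1, the cyclin D1 gene that marks most of these lymphomas, was at 2.62 to 3.18 FPKM in Mino and 591 to 600.5 in Z138. The sums over 4 T cell, 5 monocyte and 5 fibroblast marker genes were at most 4.65, 0.473 and 4.61 FPKM. In the Z138 control library EEF1A1 was listed at 0, against 6404 to 6976 FPKM in the other 3. In all, 334 tested symbols were at 0 in at least 1 library. That count includes genes at 0 throughout 1 line, such as EGFL7, at 10.7 and 10.9 FPKM in Mino and 0 in Z138. How many zeros were of the EEF1A1 kind was not counted. No Z138 ratio of hairpin to control can be had without the Z138 control library. Read depth is unknown, and because these are bulk cultures, fewer cells of a kind and less RNA per cell cannot be told apart.

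In Mino all 10 host transcripts were above their control level in the hairpin library, and in Z138 8 were below it. SNHG1, GAS5, ZFAS1 and SNHG15 differed most, at 1.37 to 1.60 times the control level in Mino. The same 4 were at 0.769 to 1.01 times the control level in Z138. SNHG3 and SNHG6 differed little in either line. None of the 10 passed the test for a shared response of both lines.

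**Figure D1:**
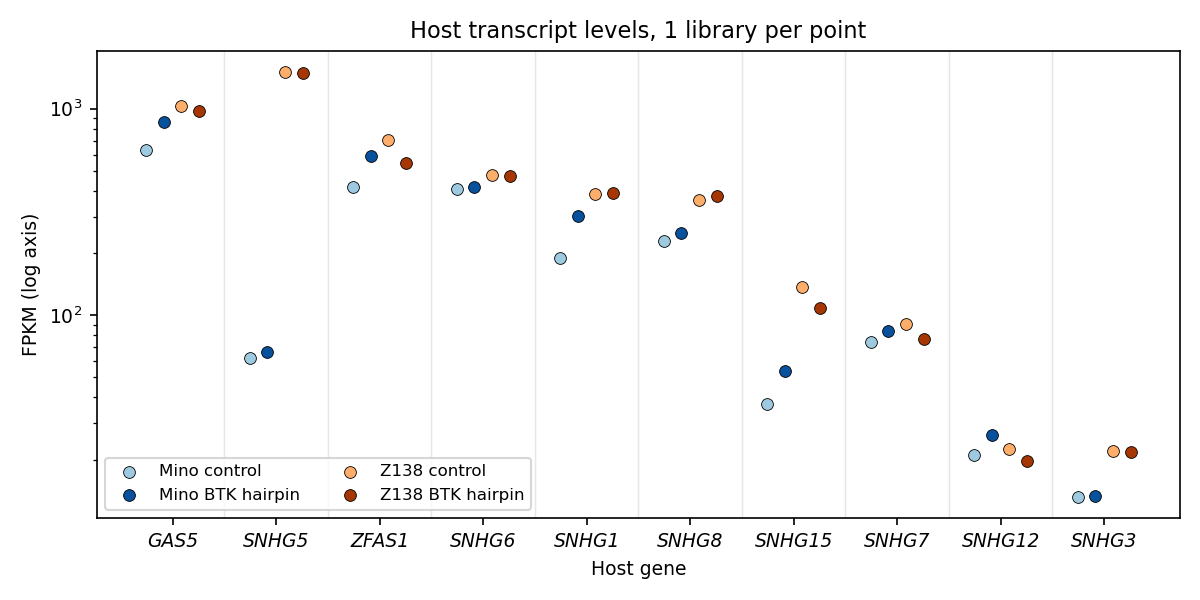
FPKM (vertical log axis) of the 10 host genes, ordered by their mean, with 1 point per library: light and dark blue for the Mino control and hairpin, light and dark orange for the Z138 control and hairpin. SNHG5 spans 62.1 to 1506 FPKM between the lines, and the other hosts span less.

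The host transcripts were abundant. Together the 10 summed to 2084 FPKM with the control vector and 2669 with the hairpin in Mino, against 4739.5 and 4475 in Z138. In that order these sums were 0.311%, 0.399%, 0.640% and 0.628% of all FPKM. Single hosts lay between the 56.3 percentile (SNHG3 in the Mino control) and the 99.3 percentile (SNHG5 in Z138) of the 11484 symbols tested, which averaged 1 FPKM or more. By mean level the order was GAS5, SNHG5, ZFAS1, SNHG6, SNHG1, SNHG8, SNHG15, SNHG7, SNHG12 and SNHG3. Over the 4 libraries the ranges of neighbours in that order overlapped for all pairs except SNHG6 with SNHG1, SNHG8 with SNHG15 and SNHG7 with SNHG12. GAS5 ranked first in both Mino libraries and SNHG5 ranked first in both Z138 libraries.

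By class, the 5 hosts of box C/D RNAs had a median log2 ratio of hairpin to control of 0.45 in Mino and −0.02 in Z138, and the 4 hosts of box H/ACA RNAs had 0.16 and −0.12. The classes overlapped in Mino, with single hosts at 0.04 to 0.67 and at 0.01 to 0.52. These ratios and all below are on the log2(FPKM + 1) scale, which understates differences at low values. Among the hosts of box C/D RNAs, GAS5 carries the most. In Mino it measured 632 FPKM with the control vector and 866 with the hairpin, and in Z138 1026 and 970.3. The Mino control was the low library, and the Z138 libraries lay close together. The log2 ratio of hairpin to control was 0.45 in Mino and −0.08 in Z138.

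SNHG1, which carries SNORD22 and a run of shorter box C/D RNAs, measured 189 FPKM with the control vector and 302 with the hairpin in Mino, against 386 and 392 in Z138. The Mino control was the low library, and the Z138 pair differed little. The log2 ratios were 0.67 in Mino and 0.02 in Z138, and 0.731% of the tested symbols had a higher ratio in Mino.

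ZFAS1, the host of the SNORD12 family, measured 419.7 FPKM with the control vector and 588 with the hairpin in Mino, against 709 and 545 in Z138. Here the hairpin library was the higher of the pair in Mino and the lower of the pair in Z138. The log2 ratios were 0.48 and −0.38.

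SNHG5, first described at a chromosome breakpoint in a B cell lymphoma, measured 62.1 FPKM with the control vector and 66.7 with the hairpin in Mino, against 1506 and 1488 in Z138. The difference lay between the lines, and within a line the libraries were close, with log2 ratios of 0.10 and −0.02. SNHG6, the host of SNORD87, was at 406, 418, 479 and 475 FPKM in the same order of libraries. Its log2 ratios were 0.04 and −0.01, and its 4 values were the most alike among the hosts of box C/D RNAs.

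Among the hosts of box H/ACA RNAs, SNHG15 stood out. SNHG15, the host of SNORA9, measured 37.3 FPKM with the control vector and 53.8 with the hairpin in Mino, against 137.8 and 108.9 in Z138. The hairpin library was again higher in Mino and lower in Z138, with log2 ratios of 0.52 and −0.34. Every Z138 value lay above every Mino value, which also held for SNHG8 and SNHG3 of this class.

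SNHG7, the host of SNORA17 and SNORA43, measured 74.2 and 84.2 FPKM in Mino (control vector, then hairpin) and 90.4 and 77.1 in Z138. Its lines overlapped, and its log2 ratios of hairpin to control were 0.18 and −0.23. SNHG8, the host of SNORA24, was at 229, 251, 361 and 378 FPKM in that order. Of the 10 hosts it had the highest ratio in Z138, at 0.07, beside 0.13 in Mino. SNHG3, the host of the paired SNORA73 RNAs, was at 13.2, 13.3, 21.9 and 21.7 FPKM, so that only the lines differed, and its log2 ratios were 0.01 and −0.01.

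SNHG12 carries RNAs of both classes. Its values in Mino were 20.9 FPKM with the control vector and 26.2 with the hairpin, and in Z138 22.4 and 19.8. Its lines overlapped, and the log2 ratios were 0.31 in Mino and −0.17 in Z138. SNHG12, SNHG3 and SNHG7 overlap the protein-coding genes TRNAU1AP, RCC1 and FAM69B in the RefSeq annotation. Since it is not given whether counting used strand, reads of such pairs cannot be told apart.

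**Figure D2:**
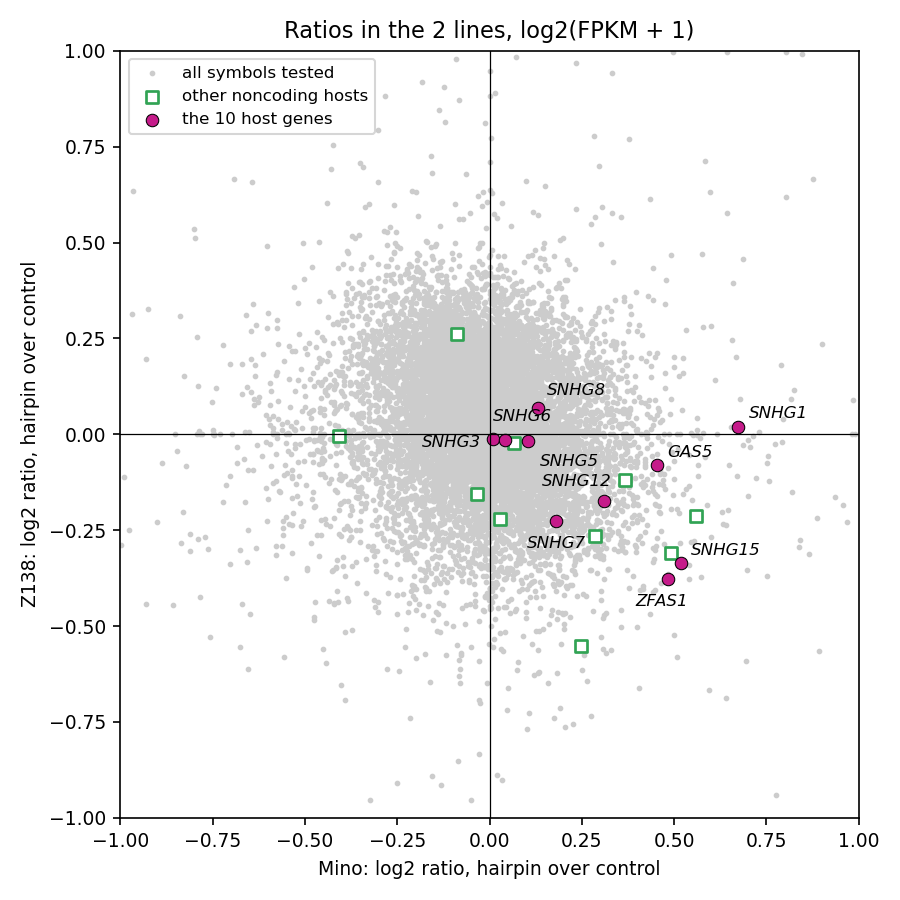
Log2 ratio of hairpin to control in Mino (horizontal) against Z138 (vertical), on log2(FPKM + 1), for the 10 host genes (filled circles), other noncoding hosts (open squares) and all symbols tested (grey; 141 lie outside the axes). SNHG15 and ZFAS1 sit at the lower right, above 0 in Mino and below 0 in Z138, and SNHG1 sits farthest to the right of the 10 hosts at 0.67.

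Counted over the 10 host genes, 10 were above their control in Mino, where 47.7% of the 11484 tested symbols were. A log2 ratio of 0.32 or more was taken as a size worth counting. By it 4 hosts were higher in the Mino hairpin library (SNHG1, SNHG15, ZFAS1 and GAS5), against 4.44% of tested symbols. SNHG12 lay just under that size at 0.31, and 5 hosts reached it with a pseudocount of 0.1 or with quantile normalization. In Mino 0 hosts were lower by it, against 5.75% of tested symbols. In Z138, 2 hosts (SNHG1 and SNHG8) were above their control, against 55.3% of tested symbols, and 2 (SNHG15 and ZFAS1) were lower by the counted size, against 4.17%. In Z138 0 hosts were higher by it, against 5.32%, and 0 were higher by it in both lines, against 0.427%. At 1.5-fold, SNHG1 in Mino was the 1 host that was higher, where 0.923% of tested symbols were, and 0 were lower, where 1.24% were. In Z138 0 hosts reached 1.5-fold, against 0.940% of tested symbols higher and 0.819% lower. A higher value in the Mino hairpin and a lower value in the Z138 hairpin library was seen in 8 of 10 hosts and in 24.1% of tested symbols. The median log2 ratio of the hosts was 0.25 in Mino and −0.05 in Z138, beside −0.01 and 0.03 over all tested symbols. Within a line there was 1 library per group, so none of these ratios has a replicate check.

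The test across lines asked whether the hairpin moved a host in the same way in both. In limma, with the cell line as a block, 0 of 10 hosts passed at an adjusted p of 0.05, and 0 had an unadjusted p under 0.05. Of all tested symbols 0.0610% were called higher and 0.0610% lower. SNHG1 had the largest mean log2 ratio over both lines among the hosts, 0.35 (SE 0.16, adjusted p = 1.00 in limma, higher in 2 of 2 lines). The mean log2 ratios of GAS5 (0.19, SE 0.15) and SNHG15 (0.09, SE 0.19) were within 1.5 SE of 0. The difference between the lines in response could not be tested, because the model has 1 residual degree of freedom per symbol and that difference is its error. With no repeat cultures, a p-value here rests on the spread of the response between 2 lines. Limma took most of that spread from other symbols, with 6.88 degrees of freedom pooled over symbols against 1 from the symbol itself. An SE here can therefore be smaller than a host's own difference between the lines would give.

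The genes beside the hosts were compared next. The nearest measured protein-coding genes (up to 3 on each side plus overlapping ones, by order in RefSeq GRCh38.p14) had a median log2 ratio in Mino of −0.14 around GAS5, −0.17 around SNHG15 and −0.04 around ZFAS1. Around SNHG1 the median was 0.21. There the adjacent SLC3A2, which encodes the heavy chain of amino acid transporters, measured 319.7 and 391 FPKM in Mino (control vector, then hairpin) and 342 and 296 in Z138. Its log2 ratios were 0.29 in Mino and −0.21 in Z138. WDR74, a ribosome assembly factor on the other side of SNHG1, had ratios of 0.14 and 0.06. Neighbours of GAS5, SNHG15 and ZFAS1 thus had medians below 0 in Mino where the hosts were above 0.

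**Figure D3:**
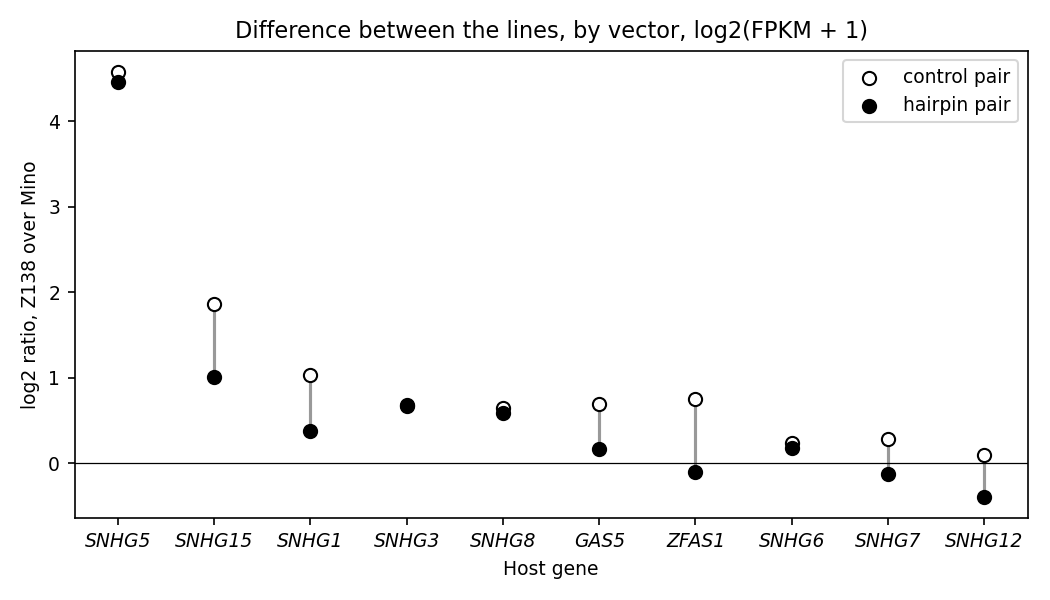
Log2 ratio of Z138 to Mino on log2(FPKM + 1) for the 10 host genes, from the control libraries (open circles) and from the hairpin libraries (filled circles), joined by a line. The filled circle is below the open circle for all 10 genes, and SNHG5 lies above 4 in both.

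The lines differed in their host transcripts. In limma with the vector as a block, 6 of 10 hosts were called higher in Z138 and 0 lower. The background was high, since 28.7% of tested symbols were called higher in Z138 and 38.8% lower, 67.4% in either direction. SNHG5 had a log2 ratio of Z138 to Mino of 4.52 (SE 0.12, adjusted p = 1.13e-07 in limma, higher with 2 of 2 vectors), and its FPKM in Z138 was 24.3 times that in Mino among controls and 22.3 times among hairpin libraries. SNHG15 followed at 1.43 (SE 0.19, adjusted p = 0.000277 in limma), and SNHG1 at 0.70 (SE 0.16, adjusted p = 0.00529). SNHG3 stood at 0.68 (SE 0.13, adjusted p = 0.00184) and SNHG8 at 0.62 (SE 0.11, adjusted p = 0.0016). GAS5, at 0.43 (SE 0.15, adjusted p = 0.0309 in limma), did not pass after removal of trends with GC content and length (0.33, adjusted p = 0.118), under quantile normalization (0.18, adjusted p = 0.354) or without a filter on low values (adjusted p = 0.0973). From the control pair alone to the hairpin pair alone, the ratio ran from 1.86 to 1.00 for SNHG15, from 1.03 to 0.38 for SNHG1 and from 0.70 to 0.16 for GAS5, all moves of over 1.5 times. For SNHG5, SNHG3 and SNHG8 the pairs were close, at 4.58 and 4.46, 0.69 and 0.66, and 0.65 and 0.59. ZFAS1 (0.32, SE 0.19), SNHG6 (0.21, SE 0.11), SNHG7 (0.08, SE 0.14) and SNHG12 (−0.15, SE 0.15) did not pass. The error in this test is the difference between vectors, not a spread between cultures. Most of it was pooled from other symbols, with 6.88 degrees of freedom against 1 from the symbol itself. The adjusted p-values from limma therefore do not rest mainly on a host's own likeness between vectors.

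No gene compared around SNHG5 had a difference between the lines as large as that of SNHG5. SYNCRIP, the nearest measured protein-coding gene on 1 side and an RNA-binding protein gene, had a log2 ratio of Z138 to Mino of 1.27. The other 5 neighbours (SNX14, CEP162, ZNF292, SMIM8 and SLC35A1) lay between −0.50 and 0.36. Around SNHG7 the opposite held: its 7 neighbours were lower in Z138, with log2 ratios from −3.56 to −0.76, while SNHG7 itself stood at 0.08.

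The log2 ratio of Z138 to Mino was lower in the hairpin pair than in the control pair for 10 of 10 hosts, where 44.3% of tested symbols had this order, with medians of 0.28 and 0.69. It lay nearer 0 in the hairpin pair for 9 of 10 hosts, against 54.0% of tested symbols, and SNHG12 was the exception, at 0.09 with the control vector and −0.39 with the hairpin. All 10 hosts were higher in Z138 than in Mino among controls, against 43.3% of tested symbols, and 7 were among hairpin libraries, against 45.2%. The 7 were higher with both vectors, as were 38.9% of tested symbols. These values restate the within-line ratios, because they use the same 4 libraries.

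GC content moves with the ratio in Z138, so it was set beside the hosts. Across 10906 symbols above 0 in each library, the Z138 ratio and the GC content of the longest GENCODE transcript had a Spearman rho of −0.57, and in Mino 0.12, both as descriptions over genes that share the same libraries. The hosts ran from 42.0% GC (SNHG6) to 65.9% (SNHG7). The longest transcript, of 3116 bases for SNHG15 and 2768 for SNHG1, need not be the spliced form that was expressed. GC content and length of that form can differ. In Mino 10 of 10 hosts lay above the median ratio of symbols in their GC bin, by 0.70 for SNHG1, 0.54 for SNHG15, 0.48 for GAS5 and 0.47 for ZFAS1. In Z138, 9 of 10 lay below it, by −0.38 for SNHG15 and −0.28 for ZFAS1, and SNHG8 was the exception. With the GC and length trends removed, SNHG15 was at 0.49 in Mino and −0.30 in Z138, ZFAS1 at 0.45 and −0.28, GAS5 at 0.47 and −0.14, and SNHG1 at 0.67 and −0.04. SNHG6 was then at −0.00 in Mino, so 9 of 10 hosts stayed above 0, and 0 hosts were lower by 0.32 or more in Z138.

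**Figure D4:**
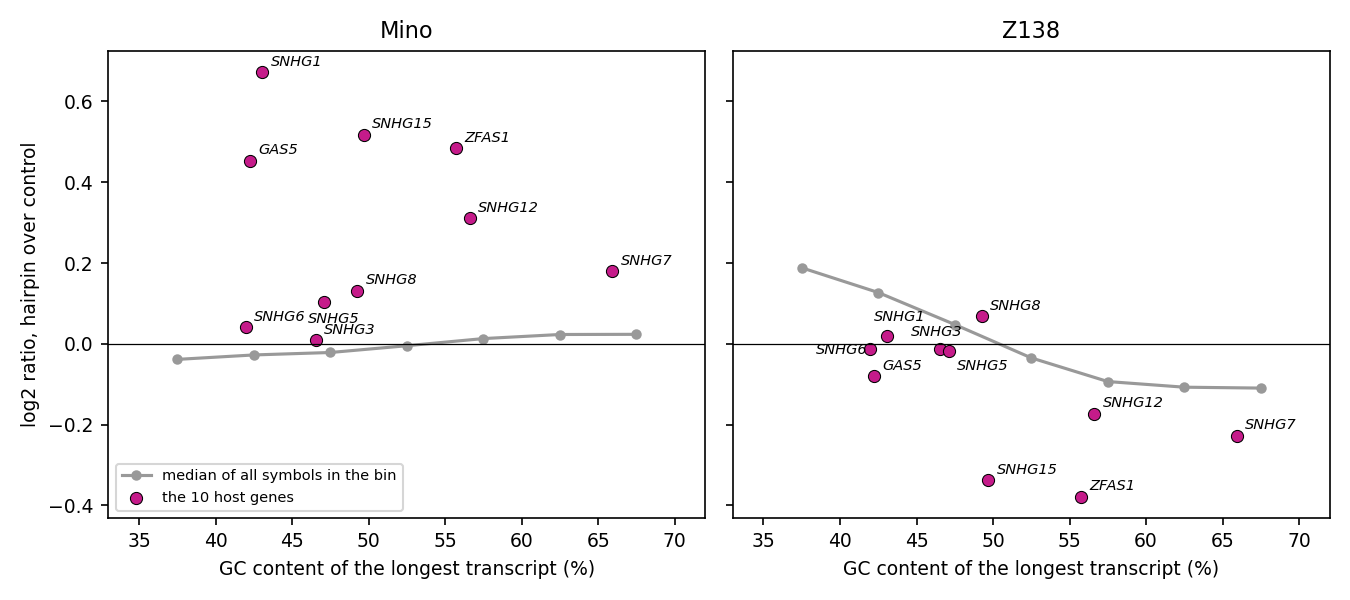
Log2 ratio of hairpin to control (vertical, log2(FPKM + 1)) against GC content of the longest transcript in percent, in Mino (left) and Z138 (right), for the 10 host genes (filled circles) and as the median of all symbols in each GC bin (grey line; the outermost bins are open and drawn near their inner edge). All 10 hosts lie above the grey line in Mino, and 9 lie below it in Z138.

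The small nucleolar RNAs inside the hosts were mostly not measured. Of 34 listed for the 10 hosts, 32 had a row, and 25 of these were listed at 0 in all 4 libraries, including all 10 of GAS5 and all 3 of ZFAS1. The 7 with a value were 126 to 134 bases long in RefSeq. Of the 25 at 0, 1 was that long (SNORA17, 133 bases) and the median was 75 bases. Over all symbols deposited, 97.3% of 256 SNORD symbols and 31.4% of 105 SNORA symbols were listed at 0 throughout, so a 0 here says nothing of whether the RNA is made.

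Only SNORD22 and SNORA24 had a value in each library, and their sequences are shown for that reason, from GENCODE release 29, 5′ to 3′. Capitals mark the last CTGA (box D) of SNORD22 and the last ACA (box ACA) of SNORA24, which end 5 and 3 bases before the end of the RNA.
SNORD22: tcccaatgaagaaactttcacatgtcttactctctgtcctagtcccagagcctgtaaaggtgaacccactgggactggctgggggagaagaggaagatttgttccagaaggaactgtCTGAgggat
SNORA24: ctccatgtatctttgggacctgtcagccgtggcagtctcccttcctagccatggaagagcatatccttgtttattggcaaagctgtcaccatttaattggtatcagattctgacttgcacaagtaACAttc

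SNORD22 measured 269 FPKM with the control vector and 466 with the hairpin in Mino, against 401 and 455 in Z138. The Mino control was the low library, as it was for its host SNHG1. The log2 ratios of hairpin to control were 0.79 for SNORD22 and 0.67 for SNHG1 in Mino, and 0.18 and 0.02 in Z138. SNORD22 had a mean of 0.49 over both lines (SE 0.16, adjusted p = 1.00 in limma). Reads from unspliced or intron-retaining SNHG1 RNA cover the same bases, so the small RNA and its host cannot be told apart by these values.

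SNORA24 measured 25.5 FPKM with the control vector and 30.2 with the hairpin in Mino, against 53.8 and 106 in Z138. The Z138 hairpin library was the high library, whereas its host SNHG8 was nearly level in that line. In Z138 the log2 ratio was 0.97 for SNORA24 and 0.07 for SNHG8, and in Mino 0.24 and 0.13. SNORA24 did not pass across lines (mean 0.60, SE 0.18, adjusted p = 1.00 in limma).

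The other 5 had a 0 in at least 1 library, which can be a failed estimate, so no fold is given. SNORA43, in SNHG7, had 0 with the control vector in either line, and 110.4 FPKM in Mino and 17.1 in Z138 with the hairpin. It passed as higher in limma (adjusted p = 0.00557), a call that rests on those zeros. The 3 in SNHG12 differed in which library was listed at 0. SNORA61 was at 34.5, 165, 114 and 0 FPKM, SNORA44 at 42.9, 0, 16.3 and 31.7, and SNORA16A at 0, 29.3, 32.9 and 72.3, each time Mino before Z138 and control before hairpin. SNORA9, in SNHG15, was above 0 only in the Z138 control, at 37.4 FPKM.

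Other noncoding hosts of small nucleolar RNAs were compared from a list of 13, of which 11 had a row and 10 were tested. In Mino 7 of the 10 were above their control and 3 were higher by 0.32 or more. In Z138 1 was above its control. The medians were 0.16 and −0.18. EPB41L4A-AS1, the host of SNORA13, measured 40.04 and 59.5 FPKM in Mino (control vector, then hairpin) and 73.9 and 63.6 in Z138. SNHG17 measured 11.0 and 15.8 FPKM in Mino and 27.0 and 21.5 in Z138, and SNHG9 measured 67.1 and 86.8 in Mino and 115 and 105 in Z138. DANCR, the host of SNORA26, was lower with the hairpin in Mino, at 26.3 and 19.6 FPKM, and nearly level in Z138, at 100.03 and 99.8. None of the 10 passed across lines in limma, and 8 were called higher in Z138 than in Mino, against 28.7% of tested symbols.

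Protein-coding hosts were less often above control in Mino and below it in Z138 than the 10 noncoding hosts. This was seen in 13 of 40, against 8 of 10 and 24.1% of tested symbols. Of 40 tested, 19 were above their control in Mino and 19 in Z138, 0 were higher by 0.32 or more in Mino, and the medians were −0.02 and −0.00. By that size 4 were lower in Mino (RPL21, HSPA8, EIF4G2 and EIF4A1, at −1.03 to −0.38) and 1 was higher in Z138 (WDR43, 0.35). None passed across lines in limma. RPLP2, a protein of the ribosomal stalk, measured 3882 and 4443 FPKM in Mino (control vector, then hairpin) and 5841 and 5863 in Z138. PPAN, a ribosome assembly factor, was at 6.98 and 8.17 in Mino and 41.4 and 41.6 in Z138. RPL23, a large-subunit protein, had log2 ratios of −0.07 and −0.16, and CWF19L1 of 0.06 and 0.18. In Z138 relative to Mino, 30 of the 40 were called higher and 7 lower, against 28.7% and 38.8% of tested symbols.

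Further 5′ TOP mRNAs of the translation machinery were divided about evenly around their controls. Of 18 tested, 7 were above their control in Mino and 9 in Z138, with 0 higher by 0.32 or more in Mino and medians of −0.01 and 0.03. By that size 2 were lower in Mino (HNRNPA1, −0.48, and NPM1, −0.35), and EEF1A1, listed at 0 in the Z138 control, was the 1 counted as higher in Z138. The elongation factor gene EEF2 measured 909.6 and 838 FPKM in Mino (control vector, then hairpin) and 2811 and 2799 in Z138. NAP1L1, a histone chaperone gene, had log2 ratios of 0.01 and 0.17.

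The proteins that package the small nucleolar RNAs were given by 2 lists. Of 8 core proteins, 2 were above control in Mino and 4 in Z138, with medians of −0.07 and −0.02. FBL, the methyltransferase of box C/D particles, measured 448 and 396 FPKM in Mino (control vector, then hairpin) and 350.2 and 300.4 in Z138. Its mean ratio over both lines was −0.20 (log2, SE 0.11, limma adjusted p = 1.00). DKC1, the pseudouridine synthase of box H/ACA particles and itself a host, had ratios of 0.07 and 0.09. NHP2 had −0.07 and −0.06, and NOP10 −0.06 and −0.16. Of 11 assembly factors, 5 were above control in Mino and 9 in Z138, with medians of −0.01 and 0.18. RPAP3 had ratios of 0.02 and 0.47, and SHQ1, a chaperone of DKC1, of 0.09 and 0.18. RUVBL2, a helicase-like assembly factor, had −0.01 and −0.11. By a size of 0.32 none of either list differed in Mino, and in Z138 1 of the 8 was higher (NOP58, 0.35), as were 2 of the 11 (RPAP3 and NUFIP1, 0.44), against 5.32% of tested symbols. None of either list passed across lines in limma.

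Genes of nonsense-mediated decay, a route that removes the spliced RNA of some hosts, were also given by a list. Of 15, 5 were above control in Mino and 9 in Z138, with medians of −0.04 and 0.01, 0 differed by 0.32 or more in Mino, 1 was higher by it in Z138 (UPF3B), and 0 passed across lines in limma. UPF3B measured 18.4 and 18.6 FPKM in Mino (control vector, then hairpin) and 6.997 and 9.62 in Z138. EIF4A3, the helicase of the exon junction complex, was at 88.6 and 71.1 in Mino and 270 and 252 in Z138. SMG9 had log2 ratios of −0.07 and −0.22, and MAGOH of 0.05 and 0.08.

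Genes tied to GAS5 RNA in other settings included NR3C1, the glucocorticoid receptor that GAS5 RNA can bind, and genes the receptor controls. Of 6 tested, 2 were above control in Mino and 4 in Z138, with medians of −0.20 and 0.17. SGK1, a kinase gene induced by glucocorticoids, measured 15.6 and 10.3 FPKM in Mino (control vector, then hairpin) against 0.820 and 0.403 in Z138. Its mean ratio over both lines was −0.46 (log2, SE 0.14, limma adjusted p = 1.00), and it was lower with the hairpin in 2 of 2 lines. PDCD4 had ratios of 0.06 and 0.23. Genes of RNA polymerase I had medians of −0.02 and 0.04 over 12 tested, with POLR1E at −0.24 and −0.03, TAF1B at 0.02 and 0.24, POLR1B at 0.03 and 0.16 and RRN3 at 0.02 and 0.17. None of either list passed across lines in limma.

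Among 8171 symbols that averaged 5 FPKM or more, the 5 whose 4 centred log2 values lay nearest to the median profile of the hosts were NPLOC4, EXOSC2, SNHG9, NIF3L1 and RNASET2, at Euclidean distances of 0.07 to 0.09. The median profile was lowest in the Mino control (−0.39), nearer the mean in the Mino hairpin library (−0.05) and higher in the Z138 control (0.31) and hairpin (0.25) libraries. EXOSC2, a subunit of the RNA exosome, was at 12.8, 15.9, 21.3 and 20.5 FPKM in that order. NPLOC4, a cofactor of the VCP ATPase, was at 25.1, 31.6, 40.4 and 39.3. SNHG9 is itself a noncoding host of a small nucleolar RNA. Of the 10 hosts, GAS5 lay nearest to this profile at 0.12 and SNHG5 farthest at 4.02, and with 4 libraries this likeness is only a description.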

How the data were processed

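RNA from 4 cultures was sequenced from Illumina TruSeq RNA libraries, per the labels' protocols. The authors deposited 1 table of FPKM values, 1 column per library, per the file headers. TopHat and hg19 are named in the submitters' processing notes. The program that made the FPKM, and its annotation, were not given in the sources used here. FPKM are not counts: low values shared a step in at most 20.1% of symbols for the 3 pairs of libraries compared, whole reads were not recovered and depth is unknown, so no counting interval is given.

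Values were analysed as log2(FPKM + 1) with limma 3.58.1 in R 4.3.3, a mean-variance trend and additive terms for line and vector, over the 11484 symbols that averaged 1 FPKM or more. P-values were Benjamini-Hochberg adjusted over all of them and called at 0.05; the script was tested on simulated data. Libraries are paired by cell line, which is the block. Within a line, ratios are described by size. GC content and length came from GENCODE release 29, found for 97.8% of tested symbols. Start sequences, lengths of small nucleolar RNAs and gene order came from RefSeq tables on GRCh38.p14, matched by symbol.

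The members and lists were chosen with earlier results of these data known. Named genes are all members, their small nucleolar RNAs above 0, up to 4 genes per list (largest mean ratio with the same sign in both lines at 5 FPKM or more) plus any called, BTK and the 5 nearest profiles; 1 gene of a list is not reported here. Not named by that rule, and chosen after their values were seen, are neighbours and the noncoding hosts EPB41L4A-AS1, SNHG17, SNHG4 and SNHG10. The same holds for NOP58, NUFIP1, RPL21, HSPA8, EIF4G2, EIF4A1, WDR43, HNRNPA1 and NPM1. Alternatives were other pseudocounts, filters, scalings, a GC and length correction, no trend, no block and single pairs.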

Additional observations from a re-analysis of the deposited data

Results flagged for a closer look

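For 8 hosts the hairpin library was above its control in Mino and below it in Z138, which drew attention because the 2 lines then go opposite ways; 24.1% of tested symbols did so, and the difference was not tested, since each line has 1 pair of libraries. The Z138 log2 ratio minus the Mino log2 ratio was −0.86 for ZFAS1, −0.85 for SNHG15, −0.53 for GAS5, −0.48 for SNHG12 and −0.41 for SNHG7. It was −0.12 for SNHG5, −0.056 for SNHG6 and −0.022 for SNHG3, whose ratios lay near 0 in both lines.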

How the results depend on the processing

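For the hairpin across both lines, 0 of 10 hosts passed in limma in the main analysis and in all 9 alternatives, and for Z138 against Mino 5 or 6 hosts passed in each. The number of all symbols called moved more. Against 7 higher and 7 lower, there were 0 higher and 2 lower without a filter on low values, 3 higher at a mean of at least 5 FPKM, 22 higher without symbols listed at 0, 1 higher with upper quartile scaling, 1 higher with quantile normalization and 0 higher with the GC and length trends removed. With no replicate block, that is without the cell line as a term, 0 were called higher and 0 lower, and no host changed its call. Directions that turned lay close to 0: the mean hairpin log2 ratio became 0.000695 for SNHG3 and 0.036 for SNHG7 with quantile normalization, and −0.075 for SNHG6 and 0.025 for SNHG7 with the GC and length trends removed. The cause was not tested. Chosen after seeing the data, counts of hosts under other scalings gave 0 lower by 0.32 or more in Z138 both with quantile normalization and with the trends removed, and 1 above control in Z138 with the trends removed. The count of hosts higher by that size in Mino was 5 with a pseudocount of 0.1 and with quantile normalization, against 4 in the main analysis. Leaving out 1 line at a time, the median ratio of the hosts ran from −0.05 to 0.25. Quantile normalization moved the median of all symbols between control lines from −0.15 to 0.04. Depth is unknown, and 1 library per group limits every within-line ratio.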
